A study of Rattus norvegicus with 241 samples.

Results

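The 7 genes of retinoid metabolism described here were followed through the mammary glands of rats given a TGFβ receptor inhibitor (TGFBRi) or vehicle. They were chosen by symbol, ignoring case: the retinaldehyde dehydrogenases ALDH1A1, ALDH1A2 and ALDH1A3, the cellular retinoic acid binding proteins CRABP1 and CRABP2, the retinoic acid receptor RARB and the retinoic acid hydroxylase CYP26B1. All 7 were listed among the 15826 genes of the largest bulk table, the 16437 genes of the sorted SD single cells and the 18237 genes of the SD whole-gland cells. The sorted ACI single-cell table held 6 of them among 15586 genes and did not list ALDH1A2. The series held 241 samples, of which 202 were bulk RNA-seq libraries of sorted cells and 39 were single-cell libraries. TGFBRi was LY2157299 (galunisertib), an inhibitor of the TGFBR1 kinase, given by gavage at 75 mg/kg in 2 doses a day to female rats, and every control rat received vehicle.

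The groups differed in strain, age and exposure. Young virgin ACI rats, an inbred strain, were dosed for 10 days from an age of 35 days, and basal, luminal and CD45+ cells were sorted 0, 7 and 14 days after dosing stopped, with 3 rats in each group. Young virgin SD rats, an outbred strain, had 10 days of dosing that began at an age of 24 days and were sampled on day 0, with 4 rats in each bulk group. Adult ACI rats of 18 to 24 weeks, virgin or parous, were also dosed for 10 days, with 4 rats in each group except in the CD45+ fraction, which had 3 virgin TGFBRi and 2 parous vehicle rats. In the carcinogen experiment, SD rats had 10 days of dosing that began at an age of 21 days, then received NMU (N-nitroso-N-methylurea) at 50 mg/kg and were sampled 87 days later. This gave 3 vehicle rats, all with tumors, and 6 TGFBRi rats, of which 3 bore tumors and 3 were tumor-free, with tumor cells from 3 vehicle and 3 TGFBRi rats. In the estradiol experiment, ACI rats had 21 days of dosing that began at an age of 38 days. They then carried a pellet with 37 mg estradiol (E2) or an empty one. Sequenced vehicle rats were 4 with E2 and 4 without. Sequenced TGFBRi rats were 4 tumor-free and 2 tumor-bearing with E2 and 3 without. Every sequenced vehicle rat with E2 bore tumors, so E2 and tumor cannot be told apart there. Single cells came from young rats on day 0: sorted ACI (3 vehicle and 3 TGFBRi), sorted SD (3 and 6) and unsorted SD whole gland (3 and 6).

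Retinol (vitamin A) is oxidised to retinaldehyde by alcohol and retinol dehydrogenases, and retinaldehyde to retinoic acid by the ALDH1A enzymes. Retinoic acid binds CRABP1 and CRABP2 in the cytoplasm, is carried by CRABP2 to the nucleus, acts there through RAR receptors paired with RXR receptors, and is degraded by CYP26 enzymes. ALDH1A activity is a widely used mark of stem and progenitor cells of the mammary epithelium, and RARB is itself a classical target gene of retinoic acid.

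The sites below are shown because RARB was the member whose promoter held the letters of such an element. RefSeq promoters of rat build GRCr8, running from 250 bases before to 50 bases after each gene start, were found for all 7 members and for 24 of the 32 other pathway genes. They were searched on both strands for the 16-letter direct repeat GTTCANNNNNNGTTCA, one form of the retinoic acid response element. Of 33469 promoters, 140 (0.418%) held a match. Among the members only the RARB promoter did, and among the pathway genes only that of CYP26A1, another retinoic acid hydroxylase. Other spellings of the element were not searched. A match to this spelling therefore does not set RARB apart from the other members. The match began 25 bases after the RARB start and 92 bases before the CYP26A1 start. Below, each site is written 5′ to 3′ on the strand of its gene, with the match in capitals, at chr15:11336410-11336439 for RARB and chr1:244883723-244883752 for CYP26A1.
RARB: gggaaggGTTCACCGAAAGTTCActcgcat
CYP26A1: ttaaagaTGAACTTTGGGTGAACtaatttg
A match is a description of the letters, and no binding was measured.

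Bulk libraries held 4194912 to 52314784 reads on genes, the sorted single-cell libraries 4517218 to 45501760 UMIs (unique transcript molecules) and the whole-gland libraries 43110872 to 92699376 UMIs in 7900 to 16424 cells. Whole-gland libraries shared 88 to 284 cell barcodes per pair. Levels below are in CPM, the reads or UMIs of a gene scaled to a library or class total of 1000000. Defining markers of each sort were highest in their own fraction by median, with overlap for the CD45+ cells. KRT14, a basal keratin, ran from 1178 to 16403 CPM in basal and from 7.14 to 1309 in luminal libraries, but reached 7039 in a CD45+ library (median of group medians 53.8). KRT18, a luminal keratin, ran from 1453 to 8208 in luminal and from 74.9 to 1159 in basal libraries, and PTPRC, which encodes CD45, from 48.3 to 1368 in CD45+ libraries against at most 47.7 elsewhere in the gland. A summed leukocyte list ran from 1757 to 12356 in CD45+ libraries and reached 2820 in a basal one. COL1A1, a collagen gene of fibroblasts, was present in all 3 sorts, at 64.3 to 26702 in basal, 1.16 to 1738 in luminal and 0.171 to 34577 in CD45+ libraries. In bulk samples, fewer cells of a type and less RNA per cell cannot be told apart. Where the labels named separate rats each was 1 replicate, and 4 parts taken from 1 E2 rat were averaged to 1.

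In the whole gland the members were highest in different classes among 12 named classes of cells, which were clustered without these genes. By class mean, ALDH1A3 was highest in mature luminal cells, CRABP2 in both luminal classes, CRABP1 and RARB in fibroblasts, ALDH1A2 in dendritic cells. Clusters without a name, described below, stood outside this order, and some held more ALDH1A2, RARB or CYP26B1 than any class. CYP26B1 and ALDH1A1 were low in all 12 class means, at up to 4.2 and 3.4 CPM. Levels were CPM of the UMIs of the class, 1 value per rat, over the 9 rats of both treatments. Neighbours in each gene's order were compared within rats by an exact two-sided sign-flip permutation test, adjusted over the neighbours of 1 gene. Of 77 pairs of neighbours, 6 differed. With 8 rats a single pair among 11 cannot go below an adjusted p of 0.0859, so that counts with a rat left out are no measure of stability.

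**Figure D1:**
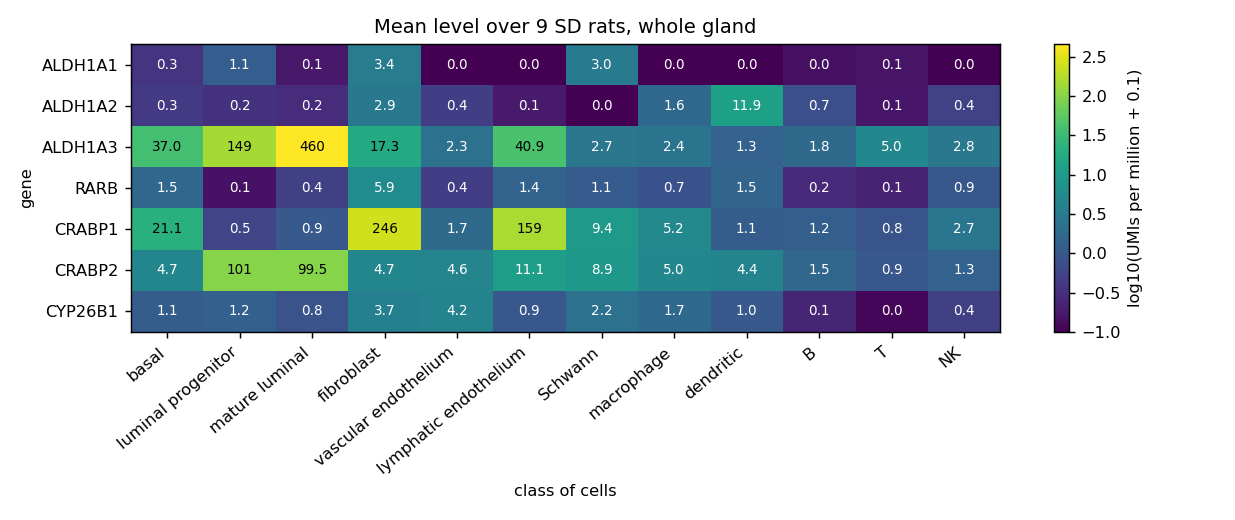
Mean level of each gene (rows) in 12 classes of whole-gland cells (columns) over 9 SD rats, as CPM (UMIs per class total of 1000000) printed in each cell and as log10(CPM + 0.1) in colour. ALDH1A3 peaked in mature luminal cells at 460, CRABP1 in fibroblasts at 246 and CRABP2 in luminal progenitors at 100.6.

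ALDH1A3 ran from 102.5 to 1486 CPM in mature luminal cells (median 167 over 9 rats) and from 21.1 to 575 in luminal progenitors (median 47.3). Mature luminal cells were higher in 9 of 9 rats, by 1.72 ± 0.46 (SD) on the log2 scale (exact permutation test, adjusted p = 0.021). Luminal progenitors, lymphatic endothelium (mean 40.9), basal cells (37.0) and fibroblasts (17.3) did not differ beyond their spread as neighbours over both treatments. Classes that were not neighbours were not tested. By value, luminal progenitors were above basal cells and above fibroblasts in every rat. Over basal cells the margin was narrow in a TGFBRi rat (43.1 against 37.4). The order depended on treatment, since luminal progenitors had 180 to 575 in vehicle rats against 11.7 to 66.6 in lymphatic endothelium, while the TGFBRi means were 42.05 and 42.9. The next gap, from fibroblasts to T cells at 4.98, held in 9 of 9 rats (adjusted p = 0.021, exact permutation test). The lymphatic level ranged from 4.42 to 80.5 in a class of 4741105 UMIs.

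CRABP2, the binding protein that hands retinoic acid to its receptors, had 70.4 to 150 CPM in luminal progenitors and 72.5 to 122 in mature luminal cells. The means of 100.6 and 99.5 did not differ beyond their spread, and lymphatic endothelium followed at 11.1 (exact permutation test, adjusted p = 0.043 against mature luminal cells, lower in 9 of 9 rats). Basal cells had a mean of 4.7. CRABP1, the other binding protein, had the opposite homes. It reached 117 to 372 in fibroblasts and 5.86 to 549 in lymphatic endothelium, against 6.60 to 35.8 in basal cells and at most 2.27 in either luminal class. Fibroblasts and lymphatic endothelium, with CRABP1 means of 246 and 159, were not separated by the test. Basal cells lay above Schwann cells (9.41) in 9 of 9 rats (exact permutation test, adjusted p = 0.043). Macrophages (5.24) passed against NK cells (2.67) with the same adjusted p, but NK cells held 0 to 3 CRABP1 UMIs per rat and no order was read from them. The part of fibroblast RNA in such low levels was not tested.

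RARB had a mean of 5.90 CPM in fibroblasts and 1.53 in basal cells, a difference seen in 9 of 9 rats (exact permutation test, adjusted p = 0.043). ALDH1A2, the enzyme of embryonic retinoic acid synthesis, had a mean of 11.9 in dendritic cells and 2.9 in fibroblasts. That order was not separated from its neighbours by the test.

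The fibroblast class was itself uneven. A cluster led by APOD, SMOC2 and SPON1 held CRABP1 at a mean of 339 CPM, while a cluster led by MFAP5, FNDC1 and FBN1, with high PI16 and DPP4, held it at 6.61. ALDH1A3 was higher in the second of these, at 38.7, and ALDH1A1 in the first, at 4.64. Also apart were 3 clusters without a name: one led by RGS5 and DES with 5377 cells held ALDH1A2 at 32.8, a second with VTN and RGS5 held it at 21.9 with CYP26B1 at 11.6, and 387 cells led by CCL19, GREM1 and CXCL13 held RARB at 46.4 and CYP26B1 at 20.6 (0 to 60.5 over the rats). These clusters were described after their values were seen.

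Across the 12 classes and 5909 genes with at least 50 CPM in some class, the genes most like ALDH1A3 were KRT18 (Pearson r = 0.96), DSG2 and MDFI (both 0.94). CRABP1 was most like MFAP2 (0.96), C1S (0.95) and CCDC80 (0.93), and CRABP2 most like RHPN2 (0.94), VTCN1 (0.93) and TSPAN1 (0.92). These correlations describe 12 points that share libraries and depth.

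Bulk fractions of young vehicle rats asked where the genes lie within the epithelium. In vehicle rats on day 0, 7 of the members' tests passed at an adjusted p of 0.05 in limma, 4 in ACI and 3 in SD rats. ALDH1A1, ALDH1A2 and CRABP1 were higher in the ACI basal fraction, ALDH1A2 and RARB in the SD basal fraction, and CRABP2 was higher in the luminal fraction of both strains. These comparisons called many genes, 20.5% of all genes tested in ACI and 50.1% in SD rats, with median log2 fold changes over all genes of 0.21 and 0.13.

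CRABP2 had 1149, 1372 and 1316 normalised reads in the ACI luminal fraction and 75.4, 57.9 and 35.8 in the basal fraction. Luminal values exceeded basal values in every rat, and the basal level was lower by a log2 fold change of -4.54 (SE 0.69, limma adjusted p = 9.5e-06). In SD rats the luminal values were 4220, 1606, 5642 and 2172, against 109, 76.8, 117 and 97.8 in basal cells, a log2 fold change of -4.92 (SE 0.44, limma adjusted p = 1.2e-07). The groups did not overlap in either strain.

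ALDH1A1, a cytosolic retinaldehyde dehydrogenase, had 175, 211 and 261 normalised reads in ACI basal cells and 6.27, 2.92 and 9.12 in luminal cells (log2 fold change 5.02, SE 0.69, limma adjusted p = 2.2e-06). In SD rats the basal values of 33.1, 53.2, 65.5 and 7.91 overlapped slightly with luminal values of 0.673 to 7.99 (log2 fold change 2.66, limma adjusted p = 0.056). ALDH1A2 had 30.9, 40.8 and 69.3 reads in ACI basal cells against at most 1.57 in luminal cells (4.76, SE 1.08, limma adjusted p = 0.0015). SD values were 24.2 to 67.01 against at most 5.39 (4.15, SE 0.83, limma adjusted p = 0.00046). In these bulk fractions both enzymes lay in the same direction in both strains, with no overlap for ALDH1A2.

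CRABP1 had 77.1, 304 and 169 reads in ACI basal cells and 4.70, 10.2 and 4.97 in luminal cells (4.46, SE 1.07, limma adjusted p = 0.0026). In SD rats it had 256 to 391 in basal cells, but the luminal rats ran from 6.06 to 1557 and the test was not passed (limma adjusted p = 0.14). Over 9 alternatives the SD change ran from -0.42 to 3.18, and 1 of 4 fits that left out a rat passed. RARB had 57.9 to 99.9 reads in SD basal cells against 0 to 12.5 in luminal cells (3.70, SE 0.88, limma adjusted p = 0.0019). Its ACI values, 68.6 to 127 against 46.2 to 63.003, did not overlap, but the log2 fold change of 0.86 did not pass (adjusted p = 0.36). CYP26B1 did not pass in either strain (limma adjusted p = 0.067 and 0.84), though 1 of 9 alternatives passed in ACI rats. ALDH1A3 had 407, 314 and 217 reads in ACI basal cells against 129, 158 and 121 in luminal cells (1.16, limma adjusted p = 0.41), and 301 to 1613 against 151 to 2667 in SD rats (0.17, adjusted p = 0.86). In SD rats the sign of the difference turned for ALDH1A3 (-0.30 with DESeq2), for CYP26B1 (0.28, and -0.26 with DESeq2) and for CRABP1 (1.89, and -0.42 with edgeR). With the rat as a block, so that basal and luminal cells of the same rat were paired, 9 calls were made, ACI ALDH1A3 (limma adjusted p = 0.034) and SD ALDH1A1 (adjusted p = 0.0032) being added.

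**Figure D2:**
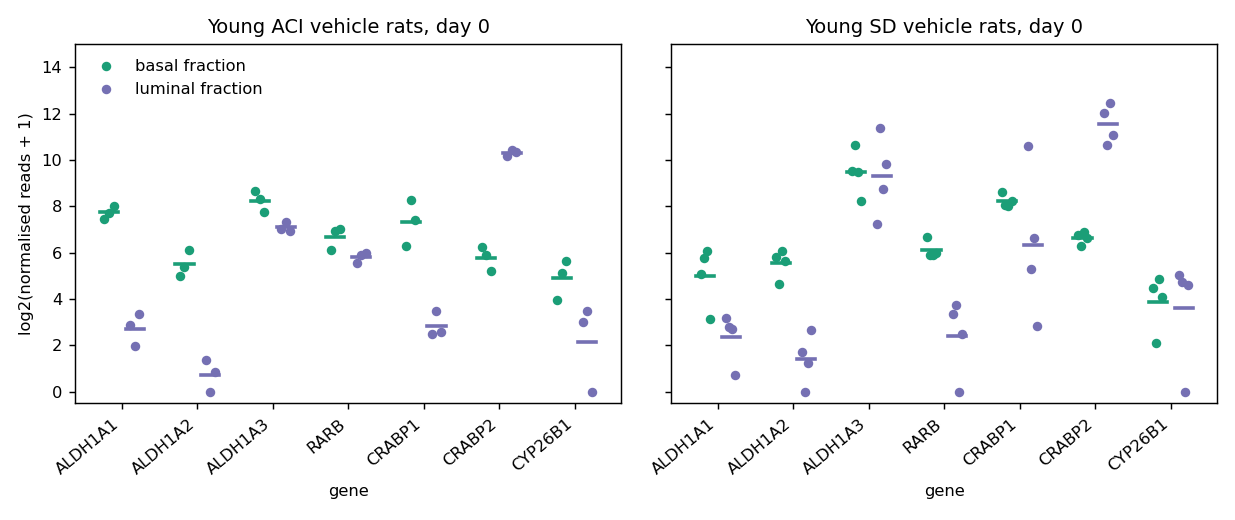
Level of each gene as log2(normalised reads + 1) in basal and luminal fractions of vehicle rats on day 0, ACI on the left (3 rats) and SD on the right (4 rats). Each point is 1 rat and bars are means of the log2 values. CRABP2 is higher in luminal cells in both panels, and ALDH1A2 is higher in basal cells.

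The basal fractions also carried more fibroblast RNA. COL1A1 had 1059 to 3690 CPM in ACI and 13978 to 26702 in SD basal libraries, against 285 to 630 and 79.7 to 743 in luminal libraries. The summed list of 8 fibroblast markers was 3488 to 8957 and 34560 to 53601 in basal against 699 to 1448 and 275 to 1470 in luminal libraries. CRABP1, RARB and ALDH1A2 were also genes of whole-gland fibroblasts, and the part of that RNA in the basal levels was not tested. In vehicle single cells, sorted ACI basal cells had ALDH1A1 at 0.831 to 1.37 CPM against 0 to 0.257 in both luminal classes. Sorted SD basal cells had no ALDH1A1 or ALDH1A2 UMI in any of 3 vehicle rats. Vehicle SD luminal progenitors had no ALDH1A2 UMI, but 8, 6 and 3 ALDH1A1 UMIs in clusters with 31.7%, 57% and 10.6% of their cells. For ALDH1A1 this lay opposite to the SD bulk direction, on few UMIs and without a test. Whole-gland vehicle means were 0.269 in basal cells and 0.236 in luminal progenitors for ALDH1A1, and 0.499 and 0.433 for ALDH1A2. Among the 32 other pathway genes, 6 were higher and 3 lower in basal cells of 30 tested in ACI, and 7 higher and 11 lower of 29 in SD (30% and 62.1%, beside 20.5% and 50.1% of all genes). Those higher in basal cells included RXRG (5.55 and 5.87 in the 2 strains), a partner receptor of RAR, and TGM2 (4.74 in ACI), a transglutaminase induced by retinoic acid. RDH16 (-3.57 in ACI) and RBP7 (-3.24 in SD) were the largest among genes lower in basal cells.

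ALDH1A3 was lower in TGFBRi than in vehicle rats in the whole gland. In the 3 vehicle rats, mature luminal cells had 512, 1486 and 1267 CPM, and in the 6 TGFBRi rats they had 145, 167, 122, 105.96, 234 and 102.5. Every vehicle rat was above every TGFBRi rat, with means of 1088 ± 511 (SD, n = 3) and 146 ± 49.5 (n = 6). The log2 fold change was -2.94 (edgeR quasi-likelihood test, adjusted p = 9.1e-05). In luminal progenitors, the values were 180, 335 and 575 against 60.1, 43.1, 47.3, 36.9, 43.7 and 21.1, again without overlap. This was a log2 fold change of -3.21 (edgeR adjusted p = 0.00036). Both luminal progenitor clusters showed lower values, 181 to 581 against 21.8 to 63.1 in one and 81.1 to 368 against 2.82 to 31.2 in the other, whose cells had a median of 852.5 UMIs. An unnamed cluster of mixed luminal markers had 350 to 834 against 33.7 to 77.7. The background was large here, since 28.2% of all genes tested were called in mature luminal cells and 26.6% in luminal progenitors.

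ALDH1A3 was also called outside the luminal cells. In basal cells it had 35.4, 89.3 and 87.0 CPM in vehicle rats and 10.2 to 37.4 (median 16.4) in TGFBRi rats, which overlapped in part (log2 fold change -1.75, edgeR adjusted p = 0.0039, 44.1% of genes called). In fibroblasts it had 40.95, 28.5 and 18.7 against 8.81 to 14.6 (median 10.8), with no overlap (-1.54, edgeR adjusted p = 0.00052, 28.9% of genes called). Of the fibroblast clusters, 2 overlapped between treatments, at 1.98 to 6.03 against 0.775 to 3.73 and 18.8 to 69.4 against 25.7 to 57.2. The third, of 336 cells of which 69% had doublet scores in the highest group, had 183 to 525 against 5.68 to 88.4. Without the cells of highest doublet scores, the fibroblast change was -0.71 (edgeR adjusted p = 0.052). Luminal keratins (KRT8, KRT18 and KRT19 summed) were lower with TGFBRi in the basal class as well, at 1067 to 1375 CPM against 1553 to 1962 without overlap, and were 48.5 to 201 against 109 to 523 in fibroblasts. Their part in both ALDH1A3 results was not tested.

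At levels of a few CPM, ALDH1A3 was lower in macrophages (2.87 to 6.98 against 0.663 to 2.49, -2.06, edgeR adjusted p = 0.029), vascular endothelium (1.64 to 9.54 against 0.705 to 1.74, -2.02, adjusted p = 0.013), B cells (1.63 to 9.92 against 0 to 1.00, -3.55, adjusted p = 0.0066) and T cells (6.39 to 12.1 against 0.963 to 5.56, -1.30, adjusted p = 0.099). Genes called made up 7.61%, 32.1%, 17.5% and 6.21% of those tested in the 4 classes. The summed luminal keratins were also present in each of these classes. They were at 33.6 to 124 CPM in vehicle and 34.1 to 162 in TGFBRi macrophages, and 37.0 to 105.1 against 26.8 to 54.03 in B cells. In T cells they were 36.4 to 98.96 against 26.9 to 52.1, and in vascular endothelium 20.7 to 93.4 against 20.6 to 46.97. In B cells, T cells and vascular endothelium the vehicle rat with the highest keratins also had the highest ALDH1A3, but not in macrophages. The part of RNA from luminal cells in these low levels was not tested. Without vehicle replicate 2 the values were -0.93 (adjusted p = 0.18) in vascular endothelium and -2.07 (adjusted p = 0.11) in B cells. The T cell call was lost in 8 of 13 alternatives, with -1.03 (adjusted p = 0.32) without vehicle replicate 2. Lymphatic endothelium (0.16), NK cells (-0.40) and Schwann cells (-2.35) were not called for ALDH1A3, and these classes had 15.4%, 3.9% and 8.64% of genes called, against 6.08% in dendritic cells.

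**Figure D3:**
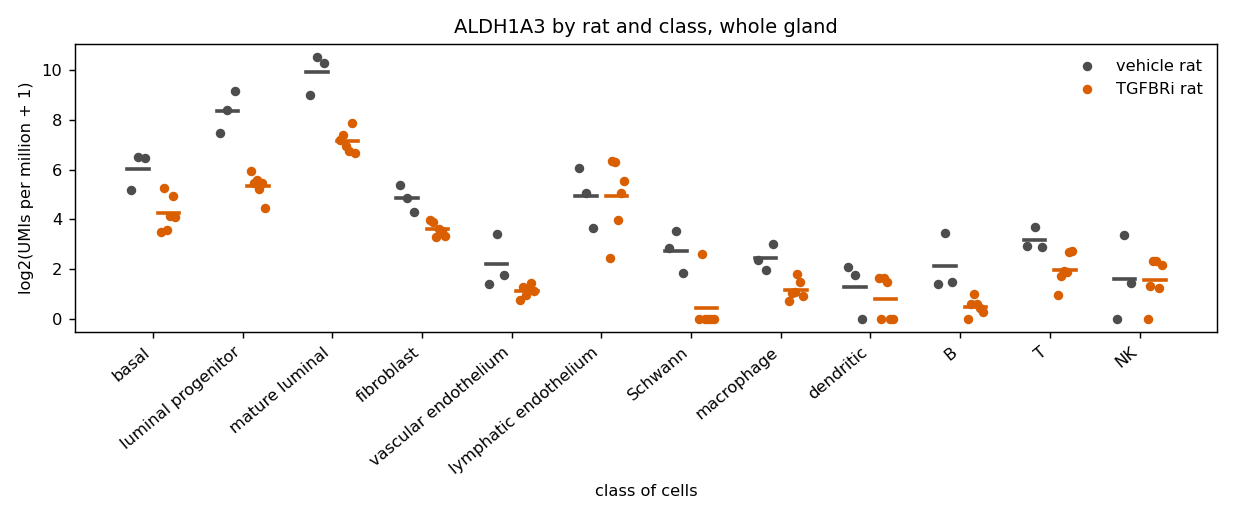
ALDH1A3 as log2(CPM + 1) in 12 classes of whole-gland cells in 3 vehicle and 6 TGFBRi rats. Each point is 1 rat and bars are means of the log2 values. In mature luminal cells and luminal progenitors every vehicle rat lies above every TGFBRi rat, and in lymphatic endothelium the groups overlap.

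Other members were called in fewer classes. RARB was higher in TGFBRi fibroblasts, at 4.88 to 9.22 (median 7.59) against 2.06, 3.39 and 3.71 CPM in vehicle, with no overlap. The log2 fold change was 0.99 (edgeR adjusted p = 0.026) and became 0.49 (adjusted p = 0.12) with coarser clusters. In basal cells RARB rose by 1.71 (adjusted p = 0.024) at levels of 1.03 to 3.29 against 0.299 to 1.19, and CYP26B1 rose by 1.33 (adjusted p = 0.044) at levels of 0.569 to 2.13 against 0.454 to 0.597. Both edgeR calls were lost when vehicle replicate 1 was left out, and that of CYP26B1 also without vehicle replicate 2. Vehicle and TGFBRi basal cells lay mostly in different clusters. One cluster held 80.1% of the vehicle and 1.76% of the TGFBRi basal cells, and another 13.6% and 94.6%. Within the second, the levels were 0 to 3.89 in vehicle and 1.11 to 3.50 in TGFBRi rats for RARB, and 0.973 to 4.44 and 0.369 to 2.08 for CYP26B1. There ALDH1A3 was 34.02 to 75.9 in vehicle and 10.5 to 38.9 in TGFBRi rats. In the first, TGFBRi cells had 2 RARB and 3 CYP26B1 UMIs in all. CRABP2 fell in fibroblasts by 1.33 on the log2 scale (edgeR adjusted p = 0.047), from 14.3, 5.04 and 3.16 to between 1.77 and 5.22, and the change was -0.56 (adjusted p = 0.36) without vehicle replicate 1. The luminal keratins given above for fibroblasts were lower with it, the doublet-rich fibroblast cluster had mean CRABP2 at 48.4 in vehicle and 24.3 in TGFBRi rats, and their part was not tested. ALDH1A2 in macrophages rested on 8 UMIs in TGFBRi and 31 in vehicle rats (-2.79, edgeR adjusted p = 0.066), a call lost in 8 of 12 alternatives. ALDH1A1 in Schwann cells rested on 1 and 15 UMIs (-3.44, edgeR adjusted p = 0.033). Between 2 and 7 members per class had enough UMIs to be tested. In all, 14 of the 56 member tests in the whole gland were called (25%, against 20.2% of all gene tests), and 8 when vehicle replicate 2 was left out. CRABP1 in fibroblasts (193, 296 and 117 against 136 to 372) and CRABP2 in luminal progenitors (86.8, 100.9 and 70.4 against 74.5 to 150) were not called.

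In cells sorted before sequencing, ALDH1A3 was not called in any of the 6 classes. In sorted SD luminal progenitors it had 49.2, 77.4 and 19.4 CPM in vehicle rats and 5.85 to 68.5 in TGFBRi rats, a log2 fold change of -0.55, and in SD mature luminal cells 42.1, 32.9 and 67.6 against 13.7 to 46.5, a change of -0.22. Sorted ACI luminal progenitors had 10.0, 7.20 and 2.24 against 8.61, 12.1 and 4.82, and mature luminal cells 9.99, 3.28 and 0.69 against 3.83, 3.73 and 2.13. Sorted and whole-gland cells were compared by their values only, and the difference between the experiments was not tested. The paper used kits that read opposite transcript ends for sorted and for whole-gland cells. It also kept only sorted cells with keratin reads and no PTPRC read. Sorting, kit and cell filter cannot be told apart here.

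CRABP2 was the member that rose in sorted luminal progenitors of both strains. SD luminal progenitors were split in clusters too, and 2 of 6 drew over 95% of their cells from 1 TGFBRi library each. In ACI rats it had 67.2, 77.2 and 71.2 CPM with TGFBRi against 56.3, 41.1 and 64.004 with vehicle, without overlap (log2 fold change 0.72, edgeR adjusted p = 0.0052). SD rats had 61.5 to 99.2 (median 71.5) against 50.4, 72.9 and 50.1, with overlap (0.76, edgeR adjusted p = 0.068). Clusters with 23.3%, 17.6% and 16% of SD TGFBRi progenitors held at most 0.401% of vehicle ones. A cluster with 57% of vehicle and 10.5% of TGFBRi cells had CRABP2 at 52.8 to 85.2 and 61.8 to 78.3. Another, with 31.7% and 28.6%, had 44.1 to 54.3 and 44.6 to 91.9, and both overlapped. In sorted ACI mature luminal cells the change was 0.55 (adjusted p = 0.080), with 32.7, 45.4 and 23.4 against 30.0, 19.8 and 31.5, and the call was kept in 2 of 6 fits that omitted 1 rat. Over all 10 alternatives the change was 0.29 to 0.73. One mature luminal cluster held 72.3% of the vehicle and 44.8% of the TGFBRi cells, with mean CRABP2 at 20.1 and 30.8, and another held 25.8% and 53.1%, with 37.9 and 34.8. In the sorted classes the median of all genes shifted by -0.22 to -0.33 on the log2 scale on the CPM scale, and by less than 0.1 in the edgeR fits.

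CRABP1 rose in sorted basal cells of both strains. Here too the treatments lay mostly in different clusters: 1 cluster held 82.6% of SD vehicle and 28.7% of SD TGFBRi basal cells, and another, with no vehicle cell, drew 98.6% of its 3409 cells from 1 library. In ACI rats the largest vehicle cluster held 42.3% of vehicle and 3.56% of TGFBRi basal cells. ACI values were 3.86, 2.42 and 2.91 CPM against 1.75, 1.43 and 0.914, without overlap (1.34, edgeR adjusted p = 0.0092). Within the ACI cluster with 19.6% of vehicle and 18.9% of TGFBRi cells, CRABP1 was 1.496 to 3.469 against 0.338 to 2.9, which overlapped. In the largest ACI vehicle cluster it was 5.458 to 7.758 against 1.284 to 1.848, without overlap but on 4 TGFBRi UMIs. SD values were 5.37 to 17.2 (median 11.02) against 3.95, 11.5 and 2.42 (1.33, edgeR adjusted p = 0.072). Within the SD cluster with most vehicle cells they were 0 to 15.1 against 2.49 to 8.18, which overlapped. The SD call was lost in 4 of 13 alternatives. ALDH1A1 rose in the same ACI cells by 1.32 (edgeR adjusted p = 0.032) at 3.44, 1.26 and 2.10 against 0.831, 1.24 and 1.37. Within the ACI cluster with 19.6% of vehicle and 18.9% of TGFBRi cells, ALDH1A1 was 1.80 to 7.48 against 1.80 to 4.14, which overlapped. The ACI call was lost in 2 of 10 alternatives, with changes of 0.83 to 2.21. In SD basal cells it had 21 UMIs over 6 TGFBRi rats and 0 in 3 vehicle rats (adjusted p = 0.055), with no fold taken. CYP26B1 in SD mature luminal cells was called on 16 and 15 UMIs (-1.61, adjusted p = 0.077). All genes called were 33.8%, 29.4% and 25.2% in ACI basal, luminal progenitor and mature luminal cells, and 29.5%, 28.7% and 32% in the same SD classes. Of 14 member tests in sorted cells of each strain, 4 were called (28.6%). All gene tests had 29.6% called in ACI and 30% in SD rats, so the members' share was near that of all genes. The 4 SD calls fell to 0 without vehicle replicate 1, to 1 without vehicle replicate 3 and to 2 without vehicle replicate 2 or TGFBRi replicate 2, and the 4 ACI calls to 2 without TGFBRi replicate 1.

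In bulk, TGFBRi was set against vehicle in 32 comparisons with 224 tests of members, and limma called none. At an unadjusted p of 0.05 there were 23 (10.3%, against 8.49% of all genes tested in these comparisons), edgeR on the recovered reads called 0, and DESeq2 called 2. Groups did not overlap in 25 of the 224 (11.2%, against 10.7% of all genes), a share near that of all genes. Of the 32 comparisons, 16 called no gene at all (0% of genes).

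ALDH1A3 came closest, in the basal cells of young ACI rats on day 0. TGFBRi rats had 30.2, 25.5 and 97.3 normalised reads and vehicle rats 407, 314 and 217, so that the groups stood apart, as those of 32.1% of all genes did. The 2 lowest values came from libraries of 6562769 and 4194912 reads, against 12382292 to 18781674 in the other 4, and the part of depth was not tested. The log2 fold change was -2.81 (SE 0.82) while the median of all genes moved by 0.30, and the test was narrowly missed (limma adjusted p = 0.067, 3.34% of genes called). DESeq2 gave an adjusted p of 0.016, limma on these groups only 0.0065, and limma without TGFBRi replicate 3 gave 0.018. The other 8 of 11 alternatives did not pass, with adjusted p up to 0.23. ALDH1A1 was at 82.6 to 127 against 175 to 261, also without overlap (-1.11, limma adjusted p = 0.26), so that 2 of 7 members (28.6%) did not overlap.

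Luminal and CD45+ cells of the same age had lower ALDH1A3 values with TGFBRi without reaching the threshold. Luminal values were 42.6, 86.9 and 52.6 against 129, 158 and 121 (-1.21, SE 0.78, limma adjusted p = 0.44, 1.01% of genes called), with a median of all genes of 0.21. CD45+ values were 19.6, 12.1 and 24.3 against 37.0, 54.9 and 72.6 (-1.50, SE 0.61, limma adjusted p = 0.19, 2.85% of genes called). Over all CD45+ libraries of the series KRT18 ran from 2.74 to 1185 CPM (median of group medians 163). The part of luminal RNA in CD45+ ALDH1A3 was not tested. Neither pair of groups overlapped, against 32.1% of all genes not overlapping in luminal and 16.5% in CD45+ cells.

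After dosing stopped, no test of ALDH1A3 was passed. On day 7 basal ALDH1A3 was 411, 1065 and 1120 against 1227, 1585 and 427 (0.00639% of genes called). The vehicle rat at 427 is a control by title and treatment tag, but its basal and luminal descriptions say treated, and the overlap on day 7 rested on this rat. On day 14 it was 2107, 2597 and 593 against 158, 1609 and 1077 (0% called). The change on day 0 minus that on day 14 was -3.996 (SE 1.16, limma adjusted p = 0.23) in basal cells and -3.09 (SE 0.86, adjusted p = 0.11) in CD45+ cells. DESeq2 gave adjusted p of 0.047 and 0.018 for these, so the call depended on the tool. All differences between days or parity called few genes: 0% and 0.00639% in basal, 0% and 0.00659% in luminal and 0.0135% and 0.19% in CD45+ cells for day 0 against days 7 and 14, and 1.04%, 0% and 0% in the 3 adult fractions. In CD45+ cells ALDH1A3 was 24.4 to 54.1 against 81.04 to 110 on day 7 and 80.6 to 194 against 25.7 to 101.4 on day 14 (0% of genes called on either day). Luminal cells called 0% of genes on days 7 and 14.

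**Figure D4:**
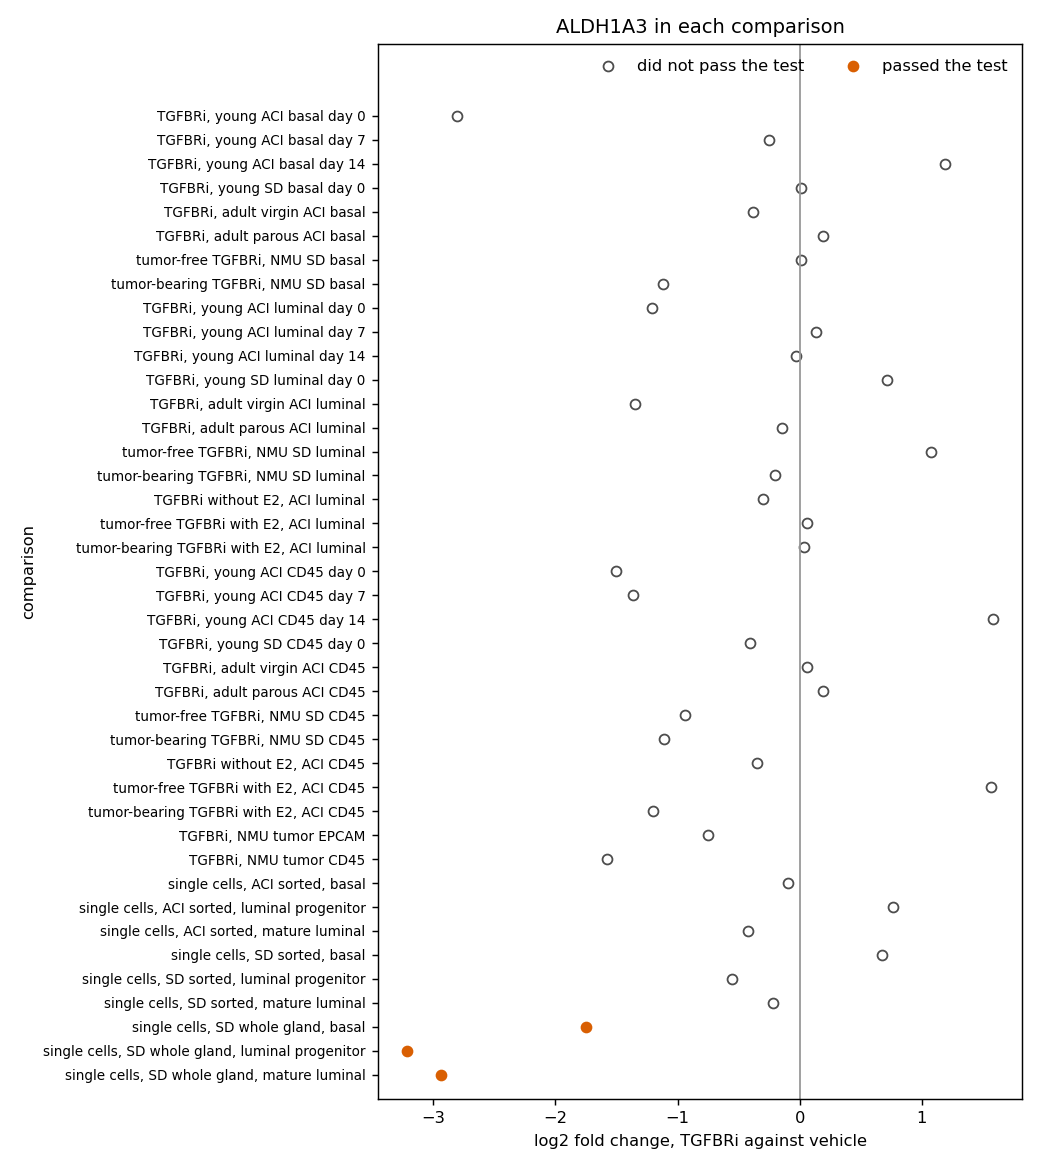
ALDH1A3 log2 fold change, TGFBRi against vehicle, in 32 bulk comparisons and in the epithelial classes of the 3 single-cell experiments. Filled points passed the test (adjusted p of 0.05 in bulk, 0.1 in single cells) and open points did not. The 3 epithelial classes of the whole gland lie at -1.75, -3.21 and -2.94, and the bulk comparisons run from -2.81 to 1.58.

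In other bulk experiments the ALDH1A3 change had either sign, and none passed in limma. Of the 4 young SD TGFBRi rats of the bulk groups, the labels call 2 weak and 2 strong responders, and the groups were not split by this. Young SD rats, with 0% of genes called in each of the 3 fractions, had 885, 1310, 649 and 344 reads against 733, 1613, 705 and 301 in basal cells (0.01) and 826, 2889, 671 and 713 against 151, 2667, 430 and 911 in luminal cells (0.71). Adult virgin ACI luminal cells had 35.05, 20.1, 24.1 and 103.1 against 233, 44.6, 93.3 and 82.7 (-1.35, limma adjusted p = 0.73). In tumor-free NMU rats luminal ALDH1A3 was 1742, 1244 and 1476 against 701, 520 and 943 (1.07, SE 0.42, limma adjusted p = 0.17), against a median of -0.32. In tumor-bearing TGFBRi rats basal ALDH1A3 was 147, 174 and 115 against 314, 412 and 235 (-1.12, SE 0.39, limma adjusted p = 0.15), against a median of -0.25. Both TGFBRi groups shared the 3 vehicle rats.

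Adult comparisons called 8.73%, 0% and 0.022% of genes in virgin basal, luminal and CD45+ cells and 0.00744%, 0.0281% and 0% in parous ones. NMU glands called 0% in tumor-free and 1.31% in tumor-bearing basal cells, 0.948% and 0.212% in luminal cells, and 0% and 0.015% in CD45+ cells. CYP26B1 in adult parous basal cells was 124, 159, 182 and 64.3 with TGFBRi against 49.2, 48.1, 10.4 and 31.6, with no overlap (2.01, SE 1.17, limma adjusted p = 0.94). Of all genes tested there, 5.77% did not overlap. CRABP1 in tumor-bearing NMU basal cells was 7130, 1999 and 1994 against 842, 1297 and 635 (1.78, SE 0.56, limma adjusted p = 0.12, DESeq2 0.0036). RARB in young ACI luminal cells was above vehicle in the means on all 3 days, at 136, 83.6 and 64.5 against 46.2, 58.3 and 63.003 on day 0, but no day passed (largest log2 fold change 2.47 on day 14, limma adjusted p = 0.28). In NMU luminal cells RARB was below vehicle instead, at 0.861 to 4.05 in tumor-free and 0 to 1.34 in tumor-bearing TGFBRi rats against 12.01 to 17.3 (limma adjusted p = 0.24 and 0.14). These levels rest on few reads, at 0.432 to 0.746 CPM in vehicle and 0 to 0.073 in tumor-bearing TGFBRi rats.

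Without TGFBRi, days, parity and E2 also changed no member past the limma threshold. From day 0 to day 14 ALDH1A1 went from 175 to 261 reads to 22.3 to 76.1 in basal cells of vehicle rats (-2.10, SE 0.60, limma adjusted p = 0.24), and from day 0 to day 7 to 24.2 to 107.1 (-1.90, adjusted p = 0.21). ALDH1A2 went from 30.9 to 69.3 down to 2.31 to 15.8 on day 14 (-2.50, limma adjusted p = 0.26), and RARB in luminal cells from 46.2 to 63.003 down to 2.29 to 34.4 (-2.71, limma adjusted p = 0.15). Both days share the day 0 rats, and the median of all genes was -0.19 in basal cells on day 14. Genes called on days 7 and 14 were 0.192% and 0.0384% in basal, 0.685% and 0.389% in luminal and 0% and 0.129% in CD45+ cells. Parous and virgin rats differed in 0% of genes in each fraction, and basal ALDH1A3 was 47.02 to 553 in parous against 418 to 497 in virgin vehicle rats (-1.49, limma adjusted p = 1.00).

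With E2, luminal vehicle ALDH1A3 was 220, 1080, 3832 and 860 reads against 532, 264, 59.9 and 119 without (2.40, SE 0.85, limma adjusted p = 0.18). ALDH1A1 was 103.3, 226, 125 and 61.1 against 38.1, 17.1, 0 and 86.5 (2.89, SE 1.05, limma adjusted p = 0.19). TGFBRi rats with E2 had ALDH1A1 at 135 to 305 when tumor-free and 179 and 64.2 when tumor-bearing, against 5.03 to 29.4 without E2. E2 called 1.48% of luminal and 0.282% of CD45+ genes, and TGFBRi called 0.0147% of luminal genes without E2. Given E2, it called 0.0147% when rats were tumor-free and 0.00736% when they bore tumors. The CD45+ values in the same order were 0%, 0% and 0.0223%. The groups with E2 share the vehicle rats.

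In every NMU tumor ALDH1A2, CRABP1, RARB and CYP26B1 had higher values than in the gland fractions of the same rat. ALDH1A1, ALDH1A3 and CRABP2 did not do so in every rat. ALDH1A2 in EPCAM+ tumor cells had 284, 518 and 333 CPM in vehicle and 230, 245 and 229 in TGFBRi rats, against 0 to 1.87 in luminal and 0 to 8.71 in basal cells of the glands. CRABP1 had 341, 412 and 189 in vehicle tumors and 1108, 773 and 1158 in TGFBRi tumors, against 2.18 to 118 in luminal and 40.7 to 413 in basal cells. RARB had 11.1 to 17.6 in tumors against at most 0.746 in luminal and 5.20 in basal cells. CYP26B1 had 2.87 to 11.7 in tumors against at most 2.03 in luminal and 4.50 in basal cells. In vehicle replicate 3 its tumor and basal values were close, at 2.87 and 2.74. These values were set side by side without a test, as tumors and glands were normalised apart. The share of all genes with higher values in every tumor was not counted. EPCAM+ tumor libraries also had a summed fibroblast list of 9768 to 79198 CPM, COL1A1 at 3702 to 26378 and a summed pericyte list of 513 to 1332, beside KRT18 at 277 to 2912, and the part of that RNA was not tested. Between treatments, CRABP1 in tumors was 18308, 11095 and 21048 normalised reads with TGFBRi against 6488, 6839 and 2309, with no overlap (1.79, SE 0.57, limma adjusted p = 1.00). Of all genes tested in these EPCAM+ cells, 6.46% did not overlap. In EPCAM+ and in CD45+ tumor cells 0% of genes were called.

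**Figure D5:**
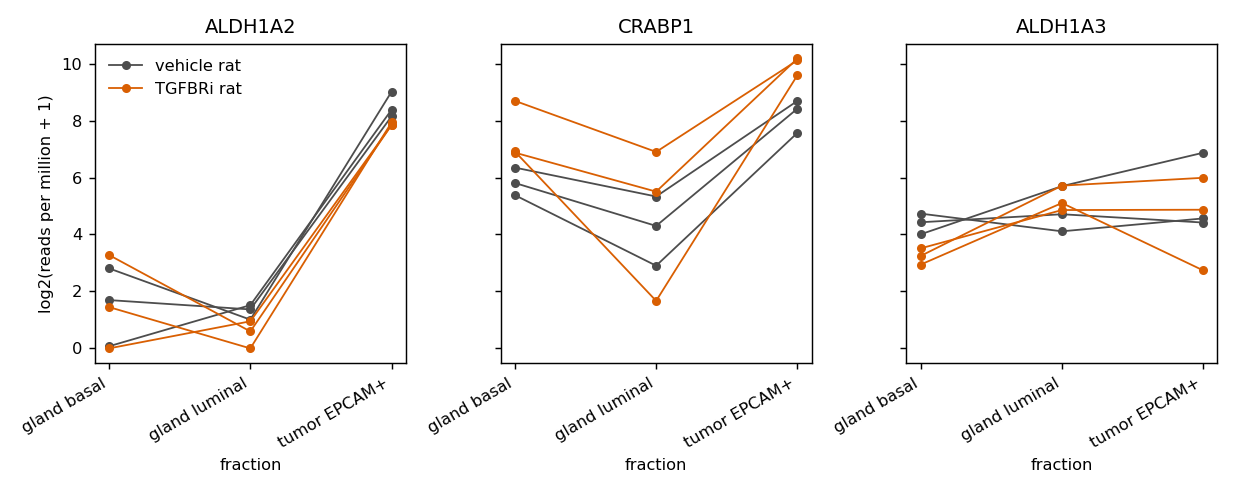
ALDH1A2, CRABP1 and ALDH1A3 as log2(CPM + 1) in gland basal, gland luminal and EPCAM+ tumor cells of 6 NMU rats, with lines joining the fractions of 1 rat. ALDH1A2 is above 229 CPM in every tumor and below 9 in every gland fraction, while ALDH1A3 overlaps.

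The rest of the pathway was measured by a list of 32 further genes. Bulk TGFBRi called few of them. Young ACI basal cells on day 0 had 3 higher of 30 (3.34% of all genes called), the alcohol dehydrogenases ADH1 (4.81) and ADH4 (4.52) and the receptor RXRG (2.81). When each of 6 rats was omitted in turn, ADH1 and ADH4 each passed 2 times. Adult virgin basal cells had 2 lower of 30, a share no larger than the 8.73% of all genes, namely RXRA (-2.29) and LRAT, which stores retinol as esters and was at 0 in the 4 TGFBRi rats against 25.007 to 336 reads in vehicle rats. FABP5, a fatty acid binding protein that also carries retinoic acid, was lower in tumor-bearing NMU luminal cells (-2.56, limma adjusted p = 0.048), a call lost in 9 of 11 alternatives.

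In the whole gland more of the list passed, beside a background that was also larger. Mature luminal cells had 3 higher and 7 lower of 24 (41.7%, against 28.2% of all genes), with FABP5 (-1.90) and the retinol dehydrogenases RDH10 (-1.03) and RDH13 (-0.82) among those lower. Luminal progenitors had 3 higher and 3 lower of 24 (25%, against 26.6%), led by DHRS3 (2.34), a reductase of retinaldehyde, at 15.8 to 30.0 CPM with TGFBRi against 3.39 to 4.53. Basal cells had 5 higher and 2 lower of 25 (28%, against 44.1%) and fibroblasts 5 higher and 5 lower of 29 (34.5%, against 28.9%), and RXRA was higher in both (1.42 and 1.60). In sorted cells RXRA was instead called lower, in ACI basal cells (-0.63, edgeR adjusted p = 0.074) and in luminal progenitors of ACI (-0.74, adjusted p = 0.087) and SD rats (-1.10, adjusted p = 0.069). These 3 calls were lost in 6 of 10, 8 of 10 and 6 of 13 alternatives. Vascular endothelium had 6 higher and 3 lower of 23 (39.1%, against 32.1%), among them RBP7 (1.51), a retinol binding protein of endothelium, at 2296 to 3907 against 555 to 1718. Lymphatic endothelium had 6 called of 17 (35.3%, against 15.4%), and the other 6 classes had 1 to 3 called each. FABP5 was lower in macrophages (-1.95), dendritic (-1.09), NK (-1.15) and B cells (-0.57). In sorted ACI cells FABP5 was higher, by 1.23 in luminal progenitors and 1.49 in mature luminal cells, and ADH1 was called lower in all 3 sorted SD classes, on 2, 6 and 1 UMIs in TGFBRi against 19, 16 and 9 in vehicle rats.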

How the data were processed

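RNA-seq values of sorted bulk cells were deposited by the authors as a signal, read counts divided by DESeq2 size factors, from STAR 2.5.1b and HTSeq on rn6. Whole reads could be recovered from 100% of 2526805 values (tolerance 0.001). Single-cell values were deposited as raw UMI counts (Cell Ranger 4.0.0 and 7.0.0, per the submitters' processing notes). The members and gene lists were chosen with earlier results of these data known. Rows naming no gene (up to 42.5% of reads) were left out. Samples were grouped by GEO's labels: a rat whose description disagreed with its treatment tag was taken as vehicle by the tag, and a sample titled day 9 but tagged day 7 as day 7.

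Bulk values were tested as log2(value + 1) with limma 3.58.1 (trend, robust) over genes summing to at least 10, all groups of a fraction in 1 fit, with Benjamini-Hochberg adjusted p of 0.05 as threshold. edgeR 4.0.16 and DESeq2 1.42.0 on the recovered reads, a pseudocount of 10, no filter, fits of the compared groups only, a replicate block and left-out rats were the alternatives. Single cells were clustered (scanpy 1.11.5, Leiden, resolution 0.8, alternative 0.4) without the members and pathway genes, summed per rat and class (at least 10 cells) and tested with edgeR's quasi-likelihood test with TMM (adjusted p of 0.1, genes of at least 10 UMIs). No doublets were removed, and an alternative left out the 6% of cells with the highest doublet scores. Basal and luminal cells of 1 rat share its name in the labels. Members are named everywhere, pathway genes where called without overlap (the 5 largest per comparison), and like genes by Pearson r. The limma and edgeR fits were tested on counts simulated with a single fixed spread and with changes only in well-covered genes. That test does not cover members with few UMIs or rats that differ more. A result for a further pathway gene is not reported here.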

Additional observations from a re-analysis of the deposited data

Results flagged for a closer look

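Each member was checked in each bulk group or single-cell class of 4 to 10 samples where its level sufficed. Among these 119 sets of values, 7 held a sample far from the others (gap to the nearest sample divided by the range, Dixon's critical values), where chance gives about 1 in 20. ALDH1A3 was lowest in 1 young SD CD45+ TGFBRi rat at 30.9 normalised reads (the others 252.8 to 272.2) and highest in 1 young SD luminal TGFBRi rat at 2889 (671 to 826). CRABP1 was highest in 1 adult virgin CD45+ vehicle rat at 240.9 (131 to 139), and CRABP2 was lowest in 1 tumor-free TGFBRi rat with E2, in luminal cells, at 2105 (3827 to 4012). CYP26B1 was lowest in 1 young SD luminal vehicle rat, at 0 (23.6 to 31.96). RARB was lowest in 1 adult parous CD45+ TGFBRi rat at 6.20 (46.4 to 60.2) and highest in 1 young SD basal vehicle rat at 99.9 (57.9 to 62.6).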

How the results depend on the processing

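Counts of members called kept 0 under every alternative tried for young SD bulk, adult ACI bulk, parous against virgin and NMU tumors. For TGFBRi in young ACI bulk, where limma called 0, DESeq2 called 1, fits of the compared groups only called 2, and leaving out 1 rat called 0 to 2 (1 without basal day 0 TGFBRi replicate 3 and 2 without luminal day 0 TGFBRi replicate 3). For days against day 0 (limma 0) DESeq2 called 3, the compared groups only 1, and left-out rats 0 to 1. For differences of the TGFBRi effect (limma 0) DESeq2 called 2 and left-out rats 0 to 1. For NMU glands DESeq2 called 1 and left-out rats 0 to 1. E2 glands gave 0 to 2 with left-out rats, and E2 against no E2 gave 1 with DESeq2 and 0 to 1 with left-out rats. The cause of these changes was not tested.

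In single cells, sorted ACI gave 2 to 4 calls with left-out rats (4 in the full fit). Sorted SD, with 4 in the full fit, gave 2 with DESeq2, 1 over the whole sorted library and 0 to 4 with left-out rats. The whole gland gave 14 calls and 8 to 16 with left-out rats, and the class levels gave 6 differing neighbours and 2 to 5, where 8 rats allow no adjusted p below 0.0859 for a single pair. Basal against luminal gave 7 calls, 7 to 8 with left-out rats and 9 when rats entered as a replicate block. Single-gene values were recomputed for members called or with an unadjusted p under 0.01, for all members in basal against luminal cells and for named pathway genes. Counting each value under each alternative, 1299 kept their direction and side of the threshold, 145 no longer passed, 19 newly passed, 2 moved and 9 changed direction, these 9 all among SD genes of basal against luminal cells that did not pass. ALDH1A3 (0.17) became -0.30 with DESeq2 and -0.32 with edgeR, and ran from -0.54 to 0.75 with left-out rats. CRABP1 (1.89) became -0.42 with edgeR, reached 3.18 among its 9 alternatives, and passed in 1 of 4 fits that left out a rat. CYP26B1 (0.28) became -0.26 with DESeq2, -0.24 with edgeR and -0.075 with a pseudocount of 10, and ran from -1.25 to 1.24 with left-out rats. Depth limits members with few UMIs, and counting error only is covered by the UMIs given.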
